A study of Mus musculus with 4 samples.

Results

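The genes described here are the nuclear genes of the mitochondrial respiratory chain and ATP synthase, chosen by symbol and not by any measured value: every gene whose symbol in the A20ZF7 gene list begins with Nduf, Sdh for the 4 succinate dehydrogenase subunits, Uqcr, Cox4 to Cox8 or Atp5, and whose gene ID is listed in both libraries. They are 94 of the 31,950 gene IDs that the libraries share. Of these, 37 belong to complex I, 4 to complex II, 8 to complex III, 19 to complex IV and 17 to complex V, which makes 85 subunits, and the other 9 (Ndufaf1 to Ndufaf8 and Cox7a2l) help to assemble the complexes. The study compared small intestinal lamina propria (SILP) cells of WT mice and of A20ZF7 mice, whose A20 (Tnfaip3) protein carries a targeted mutation of the seventh zinc finger, its linear ubiquitin binding motif, and all cells had gone through a negative selection for T cells and innate lymphoid cells. Each genotype is 1 gene expression library made with a 5′ single-cell kit from 2 pooled mice, 12 weeks old, with 60,000 cells collected per genotype. With 1 library per genotype there is no test between genotypes, and the intervals in this text are 95% intervals that cover counting error only.

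The respiratory chain passes electrons from NADH (complex I) and succinate (complex II) through complex III to oxygen at complex IV, and complex V uses the resulting proton gradient to make ATP. Complexes I, III, IV and V combine subunits encoded in the nucleus with a few encoded in mitochondrial DNA, whereas complex II is wholly nuclear. Several complex IV subunits exist as a ubiquitous isoform and a tissue-restricted one, such as the heart and muscle forms Cox6a2, Cox7a1 and Cox8b, the testis form Cox6b2 and the lung and hypoxia-associated form Cox4i2. Contraction of smooth muscle and division of lymphocytes both draw on ATP, and the lamina propria holds cells of both kinds.

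Respiratory chain promoters are known for binding sites of NRF1, ETS family factors and YY1, and these letters were looked for in RefSeq promoters (GRCm38.p6), of which 82 belong to 77 of the 94 genes. On either strand of the 250 bases before the start, the NRF1 motif (GCGC, any base, then TGCGC) was found in 18.3% of these promoters and in 3.74% of all 32,851 promoters, CCGGAAG (ETS) in 17.1% and 6.91%, and AAGATGGC (YY1) in 1.22% and 1.56%. When the 50 bases after the start were included, AAGATGGC was found in 13.4% of these promoters and in 2.75% of all. The 250 bases before the start are shown 5′ to 3′ along the gene for 4 genes on which the results turn. Cox8a is the ubiquitous isoform with the highest ratio between contractile and fibroblast barcodes, Cox6b1 and Cox6b2 are an isoform pair whose ratios between these barcodes lay on opposite sides of 1, and Ndufb4 is the gene that differed between the libraries in every class. Capitals mark the NRF1 motif, CCGGAAG or their reverse complements, with 1 match in Cox6b1 (CTTCCGG), 3 in Ndufb4 and none in the other 2, and the matches do not overlap.
Cox8a (chr19:7217617-7217866, minus strand): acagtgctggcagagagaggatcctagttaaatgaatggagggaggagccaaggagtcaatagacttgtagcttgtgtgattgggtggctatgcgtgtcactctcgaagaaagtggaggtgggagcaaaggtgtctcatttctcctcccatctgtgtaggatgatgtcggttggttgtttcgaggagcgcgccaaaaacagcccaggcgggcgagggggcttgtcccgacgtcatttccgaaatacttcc
Cox6b1 (chr7:30626115-30626364, minus strand): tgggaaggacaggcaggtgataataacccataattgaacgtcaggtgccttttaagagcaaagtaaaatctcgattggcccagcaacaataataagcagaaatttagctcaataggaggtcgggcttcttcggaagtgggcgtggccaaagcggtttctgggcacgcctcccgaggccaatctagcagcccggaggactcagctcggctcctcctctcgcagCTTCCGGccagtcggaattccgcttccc
Cox6b2 (chr7:4753095-4753344, minus strand): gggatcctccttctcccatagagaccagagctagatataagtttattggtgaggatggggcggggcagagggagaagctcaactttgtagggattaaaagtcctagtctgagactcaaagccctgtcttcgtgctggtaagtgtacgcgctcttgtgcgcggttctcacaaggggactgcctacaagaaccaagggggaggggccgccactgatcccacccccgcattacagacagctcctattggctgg
Ndufb4 (chr16:37654369-37654618, minus strand): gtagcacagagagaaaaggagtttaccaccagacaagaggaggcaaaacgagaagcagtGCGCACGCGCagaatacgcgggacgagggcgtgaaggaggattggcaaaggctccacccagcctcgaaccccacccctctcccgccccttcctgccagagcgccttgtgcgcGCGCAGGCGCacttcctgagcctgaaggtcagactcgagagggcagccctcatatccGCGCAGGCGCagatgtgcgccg
A match describes these letters only, and no binding was measured.

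The libraries hold 35,289,432 (WT) and 54,587,004 (A20ZF7) unique molecular identifiers (UMIs, each standing for 1 captured transcript). After the limits of 200 to 2,500 genes, 15% mitochondrial counts and 500 UMIs, 19,883 WT and 36,876 A20ZF7 barcodes remained, with medians of 882 and 952 UMIs, and 1,033 barcode sequences were found in both libraries (116 among lymphocyte, 0 among myeloid and 133 among stromal barcodes). Barcodes were assigned by marker genes to lymphocyte (5,989 WT, 13,811 A20ZF7), myeloid (125 and 297) and stromal (8,420 and 12,338) classes, and 22.8% of WT and 27.0% of A20ZF7 barcodes entered no class. Markers were checked in each class: all 15 lymphocyte markers, 16 myeloid markers and 14 stromal markers were found in their own class in both libraries. All 15 lymphocyte markers were also found in stromal barcodes, where they summed to 703 counts per 1,000,000 UMIs (CPM) in WT and 1,569 CPM in A20ZF7, against 6,358 and 5,853 CPM in lymphocytes. The part of these transcripts in the stromal values was not tested. WT barcodes were divided by their hashtag antibodies into mouse 1, mouse 2 and no hashtag call. No call was given to 47.3% of the 28,848 WT barcodes with at least 200 genes. Among the WT barcodes analysed, those with no call were 1,712 of 5,989 lymphocyte and 5,825 of 8,420 stromal barcodes. The call did not separate 2 clean populations, so that the spread between the WT mice may be understated. The A20ZF7 antibody matrix equalled the WT one and was not used, so A20ZF7 has no value per mouse.

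In WT lymphocytes the 94 genes made up 2.36% of all UMIs, with 2.32% in mouse 1, 2.35% in mouse 2 and 2.43% in barcodes with no call, and in A20ZF7 lymphocytes they made up 2.50%. The A20ZF7 value lay above every WT value, at a ratio of 1.06 (1.05 to 1.07). In myeloid barcodes the share was 2.43% in WT, with 2.43%, 2.47% and 2.37% in mouse 1, mouse 2 and no call, and 2.51% in A20ZF7, a ratio of 1.03 whose interval (0.995 to 1.08) includes 1. In stromal barcodes the direction was the opposite: 2.77% in WT and 2.50% in A20ZF7, a ratio of 0.902 (0.898 to 0.907). Barcodes under 100 UMIs, taken here to stand for free RNA, were also lower in A20ZF7, with 1.90% in WT and 1.62% in A20ZF7 (0.852, 0.840 to 0.865), and their part in the stromal result was not tested. In stromal barcodes the WT groups also stood far apart, with 2.57% in mouse 1, 2.54% in mouse 2 and 2.91% with no call, and against the called WT barcodes alone the ratio was 0.979. The plot of summed shares shows how much more the share varied between kinds of stromal barcode than between genotypes.

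**Figure D1:**
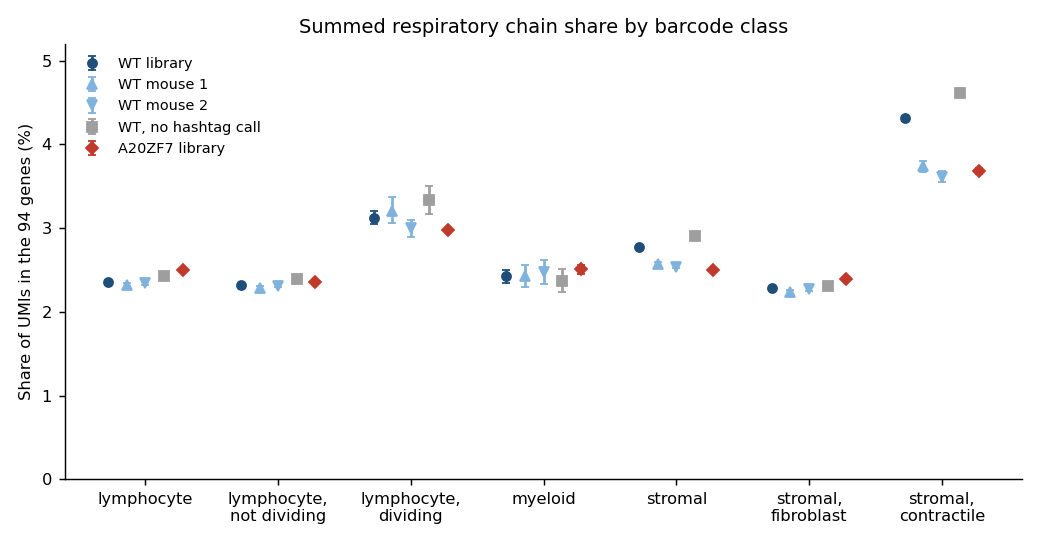
Share of UMIs in the 94 respiratory chain genes (vertical axis, percent) by barcode class, for the WT and A20ZF7 libraries and for WT by mouse and without a hashtag call, with exact Poisson 95% intervals. Contractile stromal barcodes reach 4.31% in WT and 3.68% in A20ZF7, above fibroblast barcodes at 2.28% and 2.39%.

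Stromal barcodes were divided into fibroblast barcodes (5,867 WT, 10,779 A20ZF7), which carry collagen and other fibroblast transcripts, and contractile barcodes (1,661 and 736), which carry Des, Acta2, Myh11 and Tagln, genes of smooth muscle and related cells. In contractile barcodes the 94 genes made up 4.31% of UMIs in WT and 3.68% in A20ZF7, and in fibroblast barcodes 2.28% and 2.39%. Within every library and mouse the contractile share was the higher: the ratio to fibroblast barcodes was 1.89 (1.87 to 1.90) in WT, 1.68 in mouse 1, 1.59 in mouse 2, 2.002 with no call and 1.54 (1.52 to 1.56) in A20ZF7. The contractile barcodes were 19.7% of stromal barcodes in WT (16.99% in mouse 1, 14.5% in mouse 2, 21.5% with no call) and 5.97% in A20ZF7. The part of this makeup in the summed share of the stromal class was not tested. Among fibroblast barcodes alone the A20ZF7 over WT ratio was 1.05 (1.04 to 1.05), and among contractile barcodes alone 0.854 (0.843 to 0.865). The contractile ratio rests on the WT barcodes with no call, which were 1,254 of the 1,661. Mouse 1 (209 barcodes) had 3.74% and mouse 2 (198 barcodes) had 3.62%, with A20ZF7 between them. The A20ZF7 ratio to the called WT barcodes was 1.001.

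Higher contractile levels were found in all 5 complexes and in both libraries. Complex IV, the terminal oxidase, had a ratio of contractile to fibroblast levels of 2.11 in WT and 1.64 in A20ZF7. Complex III, the cytochrome c reductase, had ratios of 1.96 and 1.60, complex I, the NADH dehydrogenase, 1.81 and 1.499, complex II, the succinate dehydrogenase, 1.82 and 1.44, and complex V, the ATP synthase, 1.81 and 1.52. The 9 assembly genes were close to level, at 1.11 and 1.03. Gene by gene, 41 of the 86 genes with at least 20 UMIs in the higher group of both libraries were past 1.5-fold higher in contractile barcodes in both, 18 of complex I, 1 of complex II, 4 of complex III, 10 of complex IV, 7 of complex V and 1 assembly gene. Of all 10,295 genes compared in this way, 8.01% were past that fold. Only 1 of the 86, Cox6b2, was past 1.5-fold lower in both, against 22.8% of all genes. The median ratio of the 86 genes, as the geometric mean of both libraries, was 1.63, and that of all genes was 0.844. Contractile barcodes held fewer UMIs than fibroblast ones, so a scarce gene reached 20 UMIs more easily when lower in contractile barcodes. The shares and the median of all genes depend on this. Taken library by library, the count past 1.5-fold higher was 70 of 89 genes in WT, 54 of 84 in mouse 1, 45 of 82 in mouse 2 and 41 of 87 in A20ZF7, where 13.9%, 12%, 10.7% and 9.15% of all genes were.

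**Figure D2:**
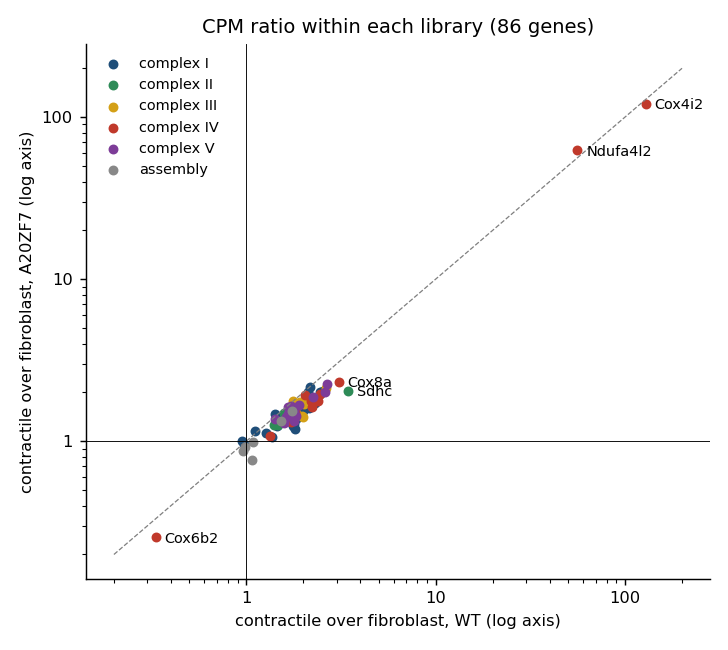
CPM ratio of contractile to fibroblast barcodes for each of the 86 genes, WT on the horizontal and A20ZF7 on the vertical axis, both log axes, coloured by complex. Cox4i2 and Ndufa4l2 stand far at the upper right, Cox6b2 alone at the lower left, and most other genes lie between 1 and 3.5 on both axes.

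Several ubiquitous subunits were among those with the highest ratios. Cox8a, a small complex IV subunit, was at 2,317 CPM in contractile and 755 CPM in fibroblast barcodes of WT (ratio 3.07, 2.95 to 3.19), and at 1,817 and 784 CPM in A20ZF7 (2.32, 2.20 to 2.45). In the contractile barcodes of the WT mice it was at 1,834 CPM (mouse 1) and 1,945 CPM (mouse 2), above the fibroblast level of every group. Sdhc, a membrane anchor of complex II, was at 189 against 55.2 CPM in WT (3.43) and at 116 against 56.8 CPM in A20ZF7 (2.05). Atp5b, the catalytic beta subunit of ATP synthase, was 2.68-fold higher in WT and 2.27-fold higher in A20ZF7, and Uqcr11, a small subunit of complex III, 2.64- and 2.12-fold higher. At the other end, Cox7a2l, which helps to join complexes III and IV, had ratios of 0.982 and 0.919, and Ndufv3, an accessory subunit of complex I, 0.971 and 0.955, with intervals that include 1.

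Cox4i2, Ndufa4l2 and Cox6b2 differed more between the stromal classes than their ubiquitous partners did. Cox4i2 was at 274 CPM in WT contractile barcodes (239 in mouse 1, 224 in mouse 2, 295 with no call) and 141 CPM in A20ZF7, but at 2.13 and 1.16 CPM in fibroblast barcodes. The ratio was 128 (77.2 to 231) in WT and 121 (70.5 to 223) in A20ZF7, whereas Cox4i1, its ubiquitous partner, had ratios of 1.82 and 1.51. Ndufa4l2, the hypoxia-inducible relative of the complex IV subunit Ndufa4, was at 263 CPM in WT contractile barcodes (265 in mouse 1, 209 in mouse 2) and 179 CPM in A20ZF7, against 4.70 and 2.87 CPM in fibroblast barcodes, ratios of 55.9 and 62.4. Ndufa4 itself had ratios of 1.77 and 1.53. Cox6b2 took the opposite course, at 15.3 CPM in contractile and 46.0 CPM in fibroblast barcodes of WT and at 13.96 and 54.6 CPM in A20ZF7, ratios of 0.332 (0.223 to 0.478) and 0.256 (0.131 to 0.449), while its partner Cox6b1 had ratios of 1.76 and 1.37.

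The muscle isoforms were scarce in contractile barcodes. Cox6a2 had 1 UMI in WT and 6 UMIs in A20ZF7, Cox7a1 had 18 and 9 UMIs, and Cox8b had 6 and 0 UMIs, each under the 20 UMIs required for a comparison. Their ubiquitous partners Cox6a1 and Cox7a2 were at 796 and 962 CPM there in WT and at 648 and 758 CPM in A20ZF7. Cox8c and Cox7b2 had no UMI in lymphocyte, myeloid or stromal barcodes of either library.

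**Figure D3:**
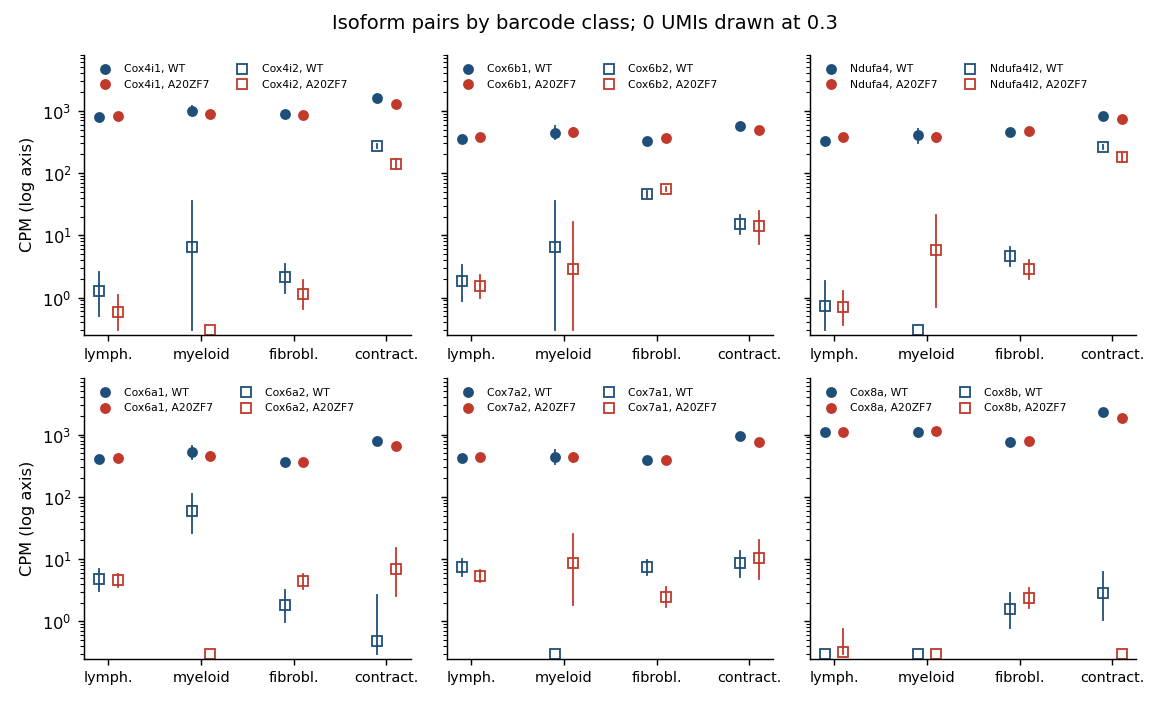
CPM (log axis) of 6 isoform pairs in lymphocyte, myeloid, fibroblast and contractile barcodes of both libraries, with exact Poisson 95% intervals, and 0 UMIs drawn at 0.3 CPM. Filled symbols (ubiquitous isoforms) stay within 3.07-fold between the 4 classes of a library, whereas Cox4i2 and Ndufa4l2 (open symbols) rise to between 141 and 274 CPM in contractile barcodes.

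Stromal and lymphocyte barcodes were closer. The summed share was 1.18-fold higher in stromal barcodes in WT (1.11 in mouse 1, 1.08 in mouse 2) and equal within counting error in A20ZF7 (0.999, 0.995 to 1.004), and with fibroblast barcodes alone the ratios were 0.968 and 0.955. Past 1.5-fold in both libraries were 10 of 91 genes higher in stromal barcodes and none lower, against 32.1% and 15.6% of all genes. The largest ratios were those of Ndufa4l2 (86.3 in WT and 24.3 in A20ZF7), Cox4i2 (49.2 and 23.2) and Cox6b2 (21.4 and 32.5), which had 11 or fewer, 9 or fewer and 24 or fewer UMIs in the lymphocytes of a library. Sdhc and the complex I subunits Ndufc1, Ndufa5, Ndufb2, Ndufa11 and Ndufb4 were also among the 10. By the geometric mean of both libraries, the smallest ratios belonged to Cox6a2 (0.286 and 1.08), Atp5md, a subunit that helps ATP synthase to form dimers (0.708 and 0.789), and Ndufs4, an accessory subunit of complex I (0.760 and 0.753). The ratio of Cox6a2 was below 1 in WT alone.

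Within lymphocytes the levels varied with division. Dividing barcodes, with at least 2 UMIs over 7 cell cycle genes such as Mki67 and Top2a, were 94 in WT (1.57% of lymphocytes, 1.20% in mouse 1 and 2.04% in mouse 2) and 1,563 in A20ZF7 (11.3%). Non-dividing barcodes had no UMI of these genes, so some lymphocytes were in neither group. The summed share was 3.13% in dividing and 2.32% in non-dividing WT lymphocytes, and 2.98% and 2.36% in A20ZF7, giving ratios of 1.35 (1.31 to 1.38) and 1.26 (1.25 to 1.27), with 1.40 in mouse 1 and 1.30 in mouse 2. Past 1.5-fold in both libraries were 12 of 75 genes higher and none lower, where 3.76% and 15.7% of all genes were. Dividing barcodes were deeper (median 1,748 and 1,654 UMIs) than non-dividing ones (746 and 861). Sdhb, the iron-sulphur subunit of complex II, was at 203 CPM in dividing and 74.0 CPM in non-dividing barcodes of WT and at 122 and 77.9 CPM in A20ZF7, ratios of 2.74 (1.94 to 3.77) and 1.57 (1.38 to 1.78). Atp5o, which joins the stalk of ATP synthase to its head, was 2.18- and 1.52-fold higher, and Atp5g3, a gene for its membrane ring subunit, 1.89- and 1.60-fold higher. The remaining 9 of the 12 were Ndufc2, Ndufab1 and Ndufv2 of complex I, Uqcr10 of complex III, Ndufa4, Cox7a2 and Cox6a1 of complex IV, and Atp5f1 and Atp5b of complex V.

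Among non-dividing lymphocytes alone, the A20ZF7 over WT ratio of the summed share was 1.02 (1.01 to 1.02), with A20ZF7 at 2.36% and the WT groups at 2.29% (mouse 1), 2.31% (mouse 2) and 2.39% (no call). A20ZF7 thus lay within the range of the WT groups. Lymphocytes were also divided by transcripts of the T cell receptor and its CD3 chains (Cd3e, Cd3d, Cd3g, Trac, Trbc1, Trbc2 and Trdc), called T cell receptor transcripts in this text. Barcodes classed as having T cell receptor transcripts were 64.6% of WT and 79.2% of A20ZF7 lymphocytes. Those classed as lacking them were 15.3% and 6.09%, and the remaining lymphocytes were in neither group. With these transcripts the summed share was 2.37% in WT (2.34% in mouse 1, 2.36% in mouse 2, 2.46% with no call). In A20ZF7 it was 2.54%, a ratio of 1.07 (1.06 to 1.08). Barcodes without them had 2.35% in WT (2.27% in mouse 1, 2.36% in mouse 2, 2.39% with no call). In A20ZF7 they had 2.23%, a ratio of 0.949 (0.929 to 0.970). Between these kinds of lymphocyte no gene of the 82 compared was past 1.5-fold in both libraries in either direction, where 3.85% and 4.98% of all genes were.

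The mitochondrially encoded subunits differed in the same direction as the nuclear ones in some comparisons and in the opposite direction in others. The 13 mitochondrial protein genes made up 4.05% of UMIs in WT and 3.79% in A20ZF7 lymphocytes (ratio 0.936, 0.932 to 0.941), and 4.54% and 3.81% in stromal barcodes (0.838, 0.835 to 0.842). Summed, they were thus lower in A20ZF7 in both classes, whereas the nuclear genes were higher in lymphocytes and lower in stromal barcodes. Single genes varied in lymphocytes, where mt-Co1 (1.06), mt-Co2 (1.0995) and mt-Atp8 (1.23), subunits of complexes IV and V, had ratios above 1 and the other 10 had ratios below 1, down to 0.735 for mt-Nd4l of complex I. In dividing lymphocytes they were lower than in non-dividing ones, at ratios of 0.626 in WT and 0.728 in A20ZF7, opposite to the nuclear genes. The 85 nuclear subunit genes thus had 1.19 UMIs per mitochondrial UMI in dividing WT lymphocytes (1.25 in mouse 1, 1.09 in mouse 2) and 1.0002 in A20ZF7, against 0.552 and 0.575 in non-dividing ones. In contractile barcodes both kinds of gene were higher than in fibroblasts, the mitochondrial ones at ratios of 1.72 and 1.64, and the nuclear per mitochondrial value was 0.632 in WT and 0.608 in A20ZF7 against 0.572 and 0.643 in fibroblasts. Barcodes under 100 UMIs had 0.0705 in WT and 0.0992 in A20ZF7, with mitochondrial genes at 26.5% and 16.02% of their UMIs. The class values come from barcodes within the 15% limit on mitochondrial counts, which was not applied to the barcodes under 100 UMIs, and in lymphocyte, myeloid and stromal barcodes the nuclear per mitochondrial value was higher with a 5% limit.

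**Figure D4:**
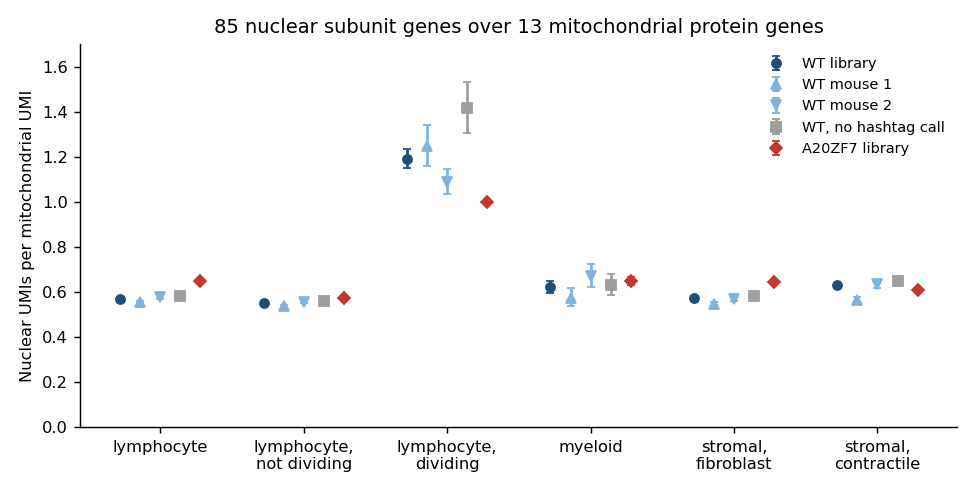
UMIs of the 85 nuclear subunit genes per UMI of the 13 mitochondrial protein genes (vertical axis) by barcode class, for both libraries and the WT groups, with exact 95% intervals. Dividing lymphocytes lie at 1.0002 or above, and the other classes shown between 0.537 and 0.671.

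Between genotypes, few single genes moved far. In lymphocytes 88 of the 94 genes had at least 20 UMIs in the higher library, and 2 of them were past 1.5-fold higher in A20ZF7 and none lower, where 13.7% and 8.59% of all genes were. Here and in the other classes, the shares of all genes were not matched to the respiratory chain genes by level. The interval of the ratio lay above 1 for 32 genes and below 1 for 12, and the median ratio was 1.03 beside 1.02 over all genes. Past 2-fold was 1 gene, Ndufb4, where 7.13% of all genes were higher and 3.75% lower. The other 6 genes (Cox4i2, Cox6b2, Cox7b2, Cox8b, Cox8c and Ndufa4l2) had too few UMIs. Between the 2 WT mice, 1 of 84 genes was past 1.5-fold in either direction, where 7.43% of all genes were. By complex the A20ZF7 over WT ratio in lymphocytes was 1.08 for complex I, 0.995 for complex II (0.938 to 1.06), 1.11 for complex III, 1.04 for complex IV and 1.06 for complex V, and 0.944 (0.901 to 0.989) for the assembly genes. Among non-dividing lymphocytes alone, complexes I to V had ratios of 1.04, 0.934 (0.874 to 0.997), 1.08, 0.987 (0.974 to 1.0002) and 1.01 (0.999 to 1.02). The part of dividing barcodes in the ratios over all lymphocytes was not tested. The complex I sum includes Ndufb4, at 12.4 CPM in WT and 107 CPM in A20ZF7, and the ratio without it is not reported here.

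The genes with the highest CPM of their complex in A20ZF7 lymphocytes all stayed within 1.5-fold between genotypes. In lymphocytes Atp5e, the epsilon subunit of ATP synthase, was at 1,159 CPM in WT (1,153 and 1,166 in the mice) and 1,312 CPM in A20ZF7, Cox7c at 1,104 CPM (1,053 and 1,060.3) and 1,200.4 CPM, and Uqcrh, the hinge protein of complex III, at 821 CPM (842 and 819) and 941 CPM. The A20ZF7 level was above both mice for these 3 genes, and above the WT barcodes with no call for Atp5e (1,154 CPM) and Uqcrh (798 CPM) but not for Cox7c (1,249 CPM). Ndufb1-ps, of complex I and listed as Ndufb1 in WT, was at 533 and 620.2 CPM, Sdha, the catalytic subunit of complex II, at 95.2 and 95.9 CPM, and Cox7a2l at 191 and 184 CPM. These levels are UMIs per 1,000,000, not scaled to transcript length.

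Ndufa1, an accessory subunit of complex I, was the other gene past 1.5-fold in lymphocytes, at 252 CPM in WT (243 in mouse 1, 260.2 in mouse 2, 250.3 with no call) and 491 CPM in A20ZF7. The WT groups did not overlap A20ZF7, and the ratio was 1.95 (1.84 to 2.06), 2.01 among barcodes with T cell receptor transcripts and 1.91 among non-dividing ones. It was lower elsewhere, at 1.26 (0.870 to 1.85) in myeloid barcodes, 1.25 (1.19 to 1.30) in stromal ones, 1.44 in fibroblast and 1.09 in contractile barcodes, and 1.14 in barcodes under 100 UMIs. The part of lymphocyte transcripts in the stromal and fibroblast ratios was not tested. Ndufs7, which carries an iron-sulphur cluster of complex I, had the smallest lymphocyte ratio, 161 CPM in WT (157 and 158 in the mice) and 112 CPM in A20ZF7, a ratio of 0.695 (0.641 to 0.755). It was below 1 in the other classes too, at 0.684 in myeloid (0.393 to 1.21) and 0.731 in stromal barcodes and 0.666 in barcodes under 100 UMIs. Ndufc1, another accessory subunit, had a lymphocyte ratio of 1.27 but 0.795 in stromal barcodes, and the smallest lymphocyte ratios after Ndufs7 were those of Cox7a1 (0.714, 0.485 to 1.07) and of Ndufaf5, an assembly factor (0.745, 0.587 to 0.951).

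**Figure D5:**
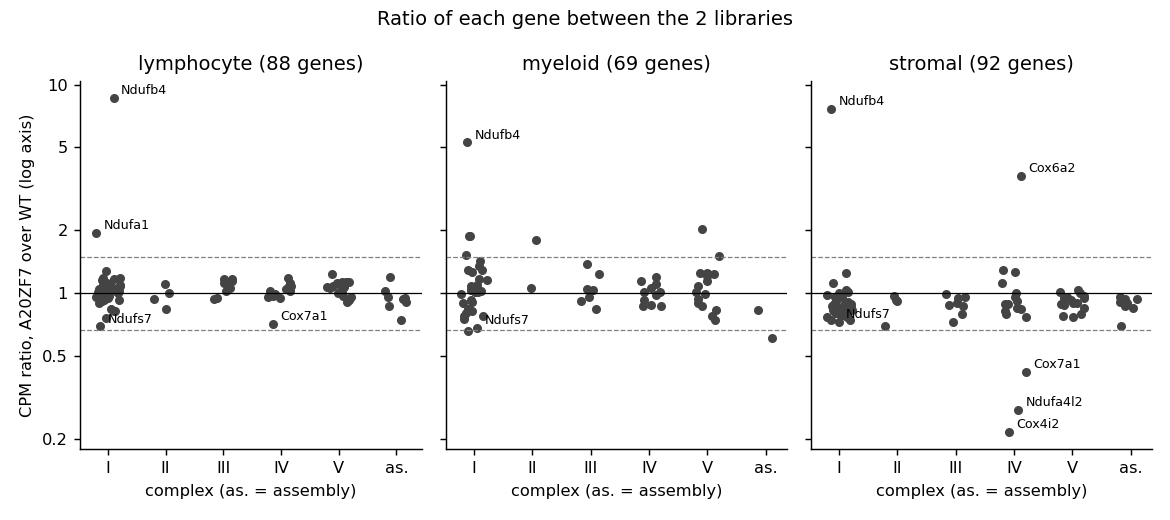
A20ZF7 over WT ratio of CPM (log axis) for each gene with at least 20 UMIs in the higher library, by complex, in lymphocyte, myeloid and stromal barcodes, with dashed lines at 1.5-fold in each direction. Ndufb4 lies at 8.65, 5.28 and 7.68, Ndufa1 at 1.95 in lymphocytes, and Cox4i2, Ndufa4l2 and Cox7a1 below the lower line in stromal barcodes.

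In stromal barcodes 92 genes were compared, of which 2 were past 1.5-fold higher and 3 lower in A20ZF7, where 13% and 14.2% of all genes were. The interval lay above 1 for 7 genes and below 1 for 63, with a median ratio of 0.887 beside 0.959 over all genes. All 5 were also past 2-fold, where 7.46% of all genes were higher and 6.67% lower. Complexes I to V had ratios of 0.909, 0.876, 0.879, 0.873 and 0.932, and in fibroblast barcodes alone 1.04, 1.01 (0.959 to 1.07), 1.03, 1.05 and 1.07. Complex I includes Ndufb4 here too, at 25.6 CPM in WT and 196 CPM in A20ZF7, and at 26.0 and 196 CPM in fibroblast barcodes. Cox4i2 was at 62.7 CPM in WT (47.8 in mouse 1, 44.7 in mouse 2, 73.1 with no call) and 13.6 CPM in A20ZF7, a ratio of 0.216 (0.184 to 0.254). Ndufa4l2 was at 62.9 CPM (61.2, 40.5 and 70.9) and 17.4 CPM, a ratio of 0.276 (0.238 to 0.320). The contractile share of the class was 19.7% in WT and 5.97% in A20ZF7, and its part in both ratios was not tested. Within contractile barcodes the ratios were nearer to 1, at 0.513 (0.419 to 0.626) for Cox4i2 and 0.682 (0.567 to 0.817) for Ndufa4l2, and both mice lay above A20ZF7. Sdhc was the other gene past 1.5-fold lower in contractile barcodes, at 189 CPM (194 and 151 in the mice) and 116 CPM, where 17% of all genes were past that fold, and Ndufb4 alone was higher, where 12.9% were.

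Cox7a1 and Cox6a2 differed in stromal barcodes at very low levels. Cox7a1 was at 7.65 CPM in WT (5.37 and 8.00 in the mice) and 3.22 CPM in A20ZF7, a ratio of 0.421 (0.288 to 0.610), and in fibroblast barcodes alone 0.335 (0.209 to 0.531). In barcodes under 100 UMIs it was at 42.6 CPM in WT and 6.18 CPM in A20ZF7, a ratio of 0.145. The part of free RNA in its stromal ratios was not tested. Cox6a2 was at 1.36 CPM in WT, from 14 UMIs, and 4.97 CPM in A20ZF7, a ratio of 3.66 (2.05 to 7.02). Mouse 2 alone was at 5.17 CPM and mouse 1 at 0.537 CPM, further apart than the genotypes, but all WT values of Cox6a2 come from those 14 UMIs. Cox6b2 had the next largest ratio, 39.0 CPM in WT (27.9, 34.8 and 43.7) and 50.7 CPM in A20ZF7, 1.30 (1.15 to 1.47), with A20ZF7 above all WT groups.

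Myeloid barcodes were few, and only 69 of the 94 genes reached 20 UMIs in the higher library. Of these, 7 were past 1.5-fold higher in A20ZF7 and 2 lower, where 27.8% and 6.71% of all genes were, and the interval lay above 1 for 4 genes and below 1 for none. The median ratio was 1.03, beside 1.19 over all genes. Past 2-fold higher were 2 genes (Ndufb4 and Atp5o) and none was lower, where 12.7% and 1.95% of all genes were. Atp5o had 11 UMIs in WT and 50 in A20ZF7 (71.3 and 146 CPM), a ratio of 2.04 (1.05 to 4.35), with 53.4 and 40.5 CPM in the mice and 123 CPM with no call. The smallest ratios were those of Ndufaf8 (0.613, 0.342 to 1.12), Ndufb6 (0.658, 0.397 to 1.105) and Ndufs7. Beside lymphocytes, the summed myeloid share was 1.03-fold in WT and 1.003-fold in A20ZF7. None of 76 genes was past 1.5-fold higher in myeloid barcodes in both libraries and 5 were lower, where 6.09% and 37.7% of all genes were. Of those 5, the assembly factors Ndufaf3, Ndufaf4, Ndufaf5 and Ndufaf6 had 0 to 7 UMIs in the myeloid barcodes of a library, and Ndufv1, which binds NADH, had 2 and 7. Myeloid barcodes held far fewer UMIs than lymphocytes, so a scarce gene could reach 20 UMIs only when lower in myeloid barcodes. The counts of higher and lower genes, and the shares of all genes, depend on this. Among the genes compared, Uqcr11 (1.78 in WT and 1.27 in A20ZF7), Ndufc2 (1.31 and 1.696) and Ndufc1 (1.64 and 1.28) had the largest myeloid over lymphocyte ratios.

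Ndufb4, an accessory subunit of complex I on chr16:37647602-37654368, stood apart from all other genes of the chain between the libraries. It was at 12.4 CPM in WT lymphocytes (16.2 in mouse 1, 13.9 in mouse 2, 4.51 with no call) and 107 CPM in A20ZF7, at 25.9 and 137 CPM in myeloid barcodes, and at 25.6 CPM (26.3, 20.7 and 27.0) and 196 CPM in stromal barcodes. The ratios were 8.65 (6.79 to 11.2), 5.28 (1.93 to 20.2) and 7.68 (6.77 to 8.75), and in barcodes under 100 UMIs 12.1 (7.39 to 20.9). Over all barcodes it had 709 UMIs in WT and 7,151 in A20ZF7. Within a library it did not vary between stromal classes, with contractile over fibroblast ratios of 0.952 (0.686 to 1.30) in WT and 0.997 (0.848 to 1.17) in A20ZF7. The gene lists differ here: the WT list also holds Ndufb4b (chr19:25033108-25033578 in GRCm38.p6), a paralog that the A20ZF7 list lacks, with 54 UMIs in lymphocyte, 4 in myeloid and 258 in stromal barcodes. With its UMIs added to those of Ndufb4 in WT, the ratios fell to 4.82 (4.01 to 5.84), 2.64 (1.24 to 6.47) and 3.88 (3.54 to 4.27), and to 5.42 under 100 UMIs. How reads were divided between the paralogs was not tested. A gene was taken to look set by annotation with a ratio of at least 3-fold one way wherever it had enough UMIs. The kinds of barcode judged were the 3 classes and barcodes under 100 UMIs, and Ndufb4 met the rule in all 4. Cox4i2 met it on the stromal class alone, the only kind with enough UMIs, and at 0.513 in contractile barcodes it would not. With too few UMIs to be judged, its ratio was 0.459 in lymphocytes and 0.761 in barcodes under 100 UMIs (14 and 8 UMIs). Ndufb11b and Cox5b-ps, named so in the WT list alone, are listed in A20ZF7 as 1700029P11Rik and Gm11273. They had 0 and 16 UMIs over the 3 classes in WT, and 0 and 54 UMIs over all A20ZF7 barcodes. Of the genes described here, 2 (Atp5f1, Ndufb1-ps) had another symbol in the WT list (Atp5pb, Ndufb1).

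Of 42 other genes of mitochondrial respiration (cytochrome c, complex IV assembly, citric acid cycle, carriers and regulators), 41 were compared in lymphocytes, with 2 past 1.5-fold higher in A20ZF7 and none lower, and a median ratio of 1.01, where 13.7% and 8.59% of all genes were and their median was 1.02. Those were Hif1a, the oxygen-regulated transcription factor, at 296 and 517 CPM (1.75, 1.66 to 1.85), and Sco2, a copper chaperone of complex IV, at 4.73 and 7.80 CPM (1.65, 1.07 to 2.63). In stromal barcodes all 42 were compared, 4 of them past 1.5-fold higher and 2 lower, with a median of 0.920, where 13% and 14.2% of all genes were and their median was 0.959. Higher were Ucp2, a carrier of the inner membrane (112 and 226 CPM, 2.01), Hif1a (126 and 234 CPM, 1.86), Sco2 (1.77) and Cox10, a haem enzyme needed for complex IV (1.72). The lymphocyte markers were also higher in A20ZF7 stromal barcodes, at 703 and 1,569 CPM summed. The part of lymphocyte transcripts in these stromal ratios was not tested. Lower were Ppargc1a and Ppargc1b, coactivators of mitochondrial genes, at 5.23 and 1.68 CPM (0.321, 0.191 to 0.524) and 11.7 and 6.98 CPM (0.595, 0.454 to 0.780). In myeloid barcodes 18 were compared, 4 of them past 1.5-fold higher (Hif1a, Cox17, Higd1a and Idh3b) and 1 lower (Mdh2), with a median of 1.24, close to the 27.8% and 6.71% of all genes and their median of 1.19.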

How the data were processed

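Single-cell RNA-Seq was done on small intestinal lamina propria cells. The authors aligned reads with Cell Ranger to mm10 and deposited UMI counts for all barcodes, with no normalization. The Cell Ranger version was 7.1 per the labels, 8.0.0 per the gene expression file headers and 7.1.0 per the WT antibody file header. The limits of 200 to 2,500 genes and at most 15% mitochondrial counts follow the study, and a minimum of 500 UMIs was added. WT barcodes called for both hashtags by HTODemux (quantile 0.99, Seurat 5.3.0, R 4.3.3) were removed (2,547 barcodes), and in A20ZF7 doublets were left in. A class needed 3 marker UMIs and at least 3 times as many as over the markers of any other class. In 42.2% of WT and 34.4% of A20ZF7 lymphocyte barcodes, 3 or 4 marker UMIs were found, near that limit.

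Counts were summed per class as CPM over the shared gene IDs (Python 3.11.15, scipy 1.17.1), with exact Poisson intervals for levels and exact conditional binomial intervals for ratios. A gene was compared with at least 20 UMIs in the higher group. Where the groups differed in size, a scarce gene reached this more easily when higher in the larger group. The shares and medians of all genes depend on this. The gene lists hold 33,696 (WT) and 32,285 (A20ZF7) IDs. The script was tested on simulated data. Genes named singly are the isoforms, the 3 largest and 3 smallest ratios per class and comparison, the highest level per complex and genes that look set by annotation; Sdhb, Atp5o, Atp5g3, Sdhc, Atp5b, Uqcr11 in contractile barcodes and Ndufv3 were named after their values were seen. The genes and lists were chosen with earlier results of these data known. The values of some members are not reported here.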

Additional observations from a re-analysis of the deposited data

Results flagged for a closer look

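The A20ZF7 over WT ratio of the summed respiratory chain genes lay on opposite sides of 1 in lymphocyte barcodes (1.061) and stromal barcodes (0.9021). It did so again in fibroblast (1.047) against contractile barcodes (0.8542), in lymphocytes with T cell receptor transcripts (1.071) against those without (0.9494), and in non-dividing (1.017) against dividing lymphocytes (0.9533). These differences between classes were not tested, since each genotype is 1 library. Against mouse 1, mouse 2 and no call, the non-dividing ratio was 1.03, 1.02 and 0.988, and the dividing ratio 0.928, 0.994 and 0.893. With T cell receptor transcripts the ratio was 1.09, 1.08 and 1.035, and without them 0.980, 0.946 and 0.934. The intervals of 0.988, 0.994 and 0.980 include 1. The contractile ratio was 1.001 against the called WT barcodes, and the part of the contractile share of the class in the stromal ratio was not tested.

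Ndufb4b, listed in WT alone, had 316 UMIs over lymphocyte, myeloid and stromal barcodes and has no value in A20ZF7. Cox5b-ps had 16 in WT and is listed in A20ZF7 as Gm11273. Over all barcodes it had 58 UMIs in WT and 54 in A20ZF7.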

How the results depend on the processing

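No paired analysis was possible because each genotype is 1 library of pooled mice. Unless stated, the cause of a move was not tested. For the lymphocyte, myeloid and stromal classes, summed values and counts of genes are given where they moved by more than counting error. Under these settings the contractile over fibroblast ratio and the ratios of most single complexes are not reported here. The contractile over fibroblast ratio differed between the WT groups, as given above.

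A limit of 5% mitochondrial counts moved the summed share in lymphocytes to 2.41% in WT and 2.58% in A20ZF7, in WT myeloid barcodes to 2.58% and in WT stromal barcodes to 2.51% (2.77% as reported). The genotype ratios became 1.07 (lymphocyte), 0.988 (myeloid) and 0.998 (stromal), with complex V in stromal barcodes turned to 1.02 and 1 of the 5 complexes above 1 there, and 5 of the myeloid genes past 1.5-fold instead of 9. Stromal over lymphocyte became 1.04 in WT and 0.967 in A20ZF7, and myeloid over lymphocyte 1.07 in WT. Nuclear per mitochondrial values rose by construction, to 0.792 and 0.839 (lymphocyte, WT and A20ZF7), 0.998 and 0.788 (myeloid) and 0.770 and 0.793 (stromal).

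A minimum of 1,000 UMIs gave shares of 2.43% and 2.62% (lymphocyte, WT and A20ZF7), 2.60% and 2.57% (myeloid) and 2.54% (stromal, A20ZF7), genotype ratios of 1.08, 0.988 and 0.912, 1 complex above 1 in myeloid barcodes instead of 3, and 4 myeloid genes past 1.5-fold. Stromal over lymphocyte was 1.15 in WT and 0.971 in A20ZF7, myeloid over lymphocyte 1.07 in WT, and nuclear per mitochondrial 0.708 and 0.787 (lymphocyte), 0.805 and 0.711 (myeloid) and 0.639 and 0.728 (stromal). With no UMI minimum, the A20ZF7 shares were 2.47% (lymphocyte) and 2.49% (stromal), the lymphocyte ratio 1.05, stromal over lymphocyte in A20ZF7 1.01, and nuclear per mitochondrial 0.556 and 0.607 (lymphocyte), and 0.615 (myeloid) and 0.629 (stromal) in A20ZF7.

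With no marker UMI of another class allowed, shares were 2.48% (lymphocyte, A20ZF7), 2.29% (myeloid, WT), and 2.90% and 2.47% (stromal). Genotype ratios were 1.12 (myeloid) and 0.853 (stromal), 4 lymphocyte genes were past 1.5-fold, stromal over lymphocyte was 1.24 in WT (1.18 as reported), and myeloid over lymphocyte 0.976 and 1.03. Nuclear per mitochondrial was 0.548 and 0.611 (lymphocyte), 0.437 (myeloid, WT), and 0.574 and 0.539 (stromal). A class gate of 5 marker UMIs gave 2.54% (lymphocyte, A20ZF7), a lymphocyte ratio of 1.07, stromal over lymphocyte of 0.985 in A20ZF7, and nuclear per mitochondrial of 0.609 and 0.705 (lymphocyte) and 0.648 (stromal, A20ZF7).

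Without mitochondrial, ribosomal protein, immunoglobulin and haemoglobin genes in the total, shares rose by construction to 3.32% and 3.51% (lymphocyte), 3.11% and 3.28% (myeloid) and 3.51% and 3.24% (stromal). The stromal genotype ratio was 0.923, stromal over lymphocyte 1.06 and 0.923, and myeloid over lymphocyte 0.937 and 0.934. Divided by the median ratio of all genes, the genotype ratios were 1.04, 0.866 and 0.940 for lymphocyte, myeloid and stromal barcodes. Leaving out 1 WT mouse gave WT shares of 2.37% to 2.38% (lymphocyte) and 2.82% to 2.83% (stromal), genotype ratios of 1.05 to 1.06 and 0.883 to 0.888, stromal over lymphocyte of 1.19 to 1.20 and 3 to 4 lymphocyte genes past 1.5-fold.

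The following alternatives were chosen after the data had been seen. With called WT barcodes only, WT shares were 2.34% (lymphocyte) and 2.56% (stromal), genotype ratios 1.07 and 0.979, the contractile ratio turned to 1.001, stromal over lymphocyte was 1.09, and stromal nuclear per mitochondrial 0.577. With fibroblast barcodes only, the stromal genotype ratio turned to 1.05, stromal over lymphocyte turned to 0.968 in WT and was 0.955 in A20ZF7. With contractile barcodes only the genotype ratio was 0.854, and with non-dividing lymphocytes only 1.02.

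Counts of genes past the fold depended on its definition. At 2-fold they were 1 (lymphocyte) and 2 (myeloid), at 50 UMIs 2 (myeloid), and with no minimum beyond 1 UMI 15 (myeloid). Without Ndufb4 and Cox4i2 they were 1 (lymphocyte) and 3 (stromal), and nuclear per mitochondrial in A20ZF7 was 0.646 (lymphocyte) and 0.640 (stromal). An upper limit of 5,000 genes moved none of the values compared. Depth limits the myeloid results, where 25 of the 94 genes were under 20 UMIs.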

Other observations

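Epithelial barcodes, which carry Epcam and keratin transcripts and had remained after the selection, had the highest share of UMIs in the 94 genes among the lymphocyte, myeloid, stromal, plasma, endothelial and epithelial classes. It was 10.1% in WT (358 barcodes, 9.25% in mouse 1 and 9.26% in mouse 2) and 7.16% in A20ZF7 (34 barcodes). Their nuclear per mitochondrial value was 1.55 in WT and 1.45 in A20ZF7, above that of dividing lymphocytes. The epithelial barcodes of A20ZF7 are too few to be compared by gene.

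Plasma barcodes had the lowest share among the same classes, 1.22% in WT and 1.79% in A20ZF7, a ratio of 1.47 (1.43 to 1.51), beside a median of 1.54 over all genes compared. Immunoglobulin transcripts took 59.7% of plasma UMIs in WT and 44.4% in A20ZF7. Without mitochondrial, ribosomal protein, immunoglobulin and haemoglobin genes in the total, the shares were 3.98% and 4.49%. Endothelial barcodes had 2.07% and 2.15%, a ratio of 1.04 (0.992 to 1.09).

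Cox7a1 had 3,139 UMIs over all WT barcodes and 276 over all A20ZF7 barcodes, yet only 41 and 82 UMIs in lymphocyte, 0 and 3 in myeloid and 79 and 48 in stromal barcodes. In barcodes under 100 UMIs it had 101 and 11 UMIs. Cox6a2 had 9 UMIs in WT myeloid barcodes and 0 in A20ZF7, and 20 UMIs in WT plasma barcodes and 3 in A20ZF7.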
